A study of Mus musculus with 12 samples.

Results

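Choroid plexus genes were followed in the hippocampal transcriptome of 12 male mice. They are 8 genes, Ttr, Sostdc1, Folr1, Kl, Clic6, Kcne2, Aqp1 and Otx2, out of 35580 genes with a deposited transcript and 18434 genes that were tested. The 8 were chosen by their own measured levels in these libraries: they rise and fall together between mice of the same group. Their joint variation is therefore given as a description, with no test.

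The mice were C57BL/6 by the labels (C57BL/6J in the study's methods), aged 70 days after birth, and each group held 3 mice with 1 library per mouse. Control mice came from dams that drank water and were left with the dam. Ethanol mice came from dams with free choice between water and 10% ethanol, named by the labels for gestation and by the study's methods also for the first days of nursing. Stress mice were isolated from dam and littermates for 3 h a day from day 2 to day 14, and ethanol + stress mice had both exposures. Ethanol intake was voluntary, so the dose that each pup received was not set. Only part of each litter was separated, so a litter could give mice to more than one group, and the labels do not name the litter. All p-values therefore measure the spread between these mice.

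The choroid plexus is a fringe of epithelium over a core of vessels that hangs into the brain ventricles and makes cerebrospinal fluid. Its epithelial cells carry very large amounts of transthyretin mRNA and move ions, water and vitamins between blood and fluid. In the lateral ventricle it lies along the edge of the hippocampus, and a hippocampal dissection can carry some of it. In bulk tissue, fewer cells of a type and less RNA per cell cannot be told apart.

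The values are TPM, each transcript's share of a library per unit of its length, scaled between libraries by the authors and summed here per gene. Being per length, levels can be compared between genes. The depth recovered from low values was 12069000 to 14965000 read pairs per library. Markers of hippocampal neurons, the tissue named in the labels, were present in every library, with a summed level of 414 to 488 TPM over 8 genes. The sums of the deposited values ran from 889222 to 1173650 per library and were highest in ethanol replicate 2 and in ethanol + stress replicates 2 and 3.

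Ttr encodes transthyretin, which carries thyroid hormone and retinol in cerebrospinal fluid. It lies on chromosome 18 (GRCm38, positions 20665280 to 20674321, plus strand), and 1 transcript of 4 exons held its reads. In control mice Ttr stood at 1251, 591 and 1782 TPM. In ethanol mice it stood at 3424, 70.7 and 30.003 TPM. Replicate 1 of the ethanol group was thus above every control mouse, and the other 2 were far below every control mouse. In stress mice Ttr was at 1785, 5100.1 and 1599.6 TPM, and in ethanol + stress mice at 2235, 7089 and 191 TPM. The ethanol and ethanol + stress groups each held mice above and below the whole control range. The highest and lowest of the 12 libraries differed 236-fold. Ttr ranked 12th among the 18434 tested genes in ethanol + stress replicate 2, where it took 0.629% of all values, and at place 5052 in ethanol replicate 3, where it took 0.00337%. The mean level was 1208 TPM ± 597 in control, 1175 TPM ± 1948 in ethanol, 2828 TPM ± 1969 in stress and 3172 TPM ± 3543 in ethanol + stress mice (SD, n = 3 each). In the ethanol and ethanol + stress groups the SD exceeded the mean.

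**Figure D1:**
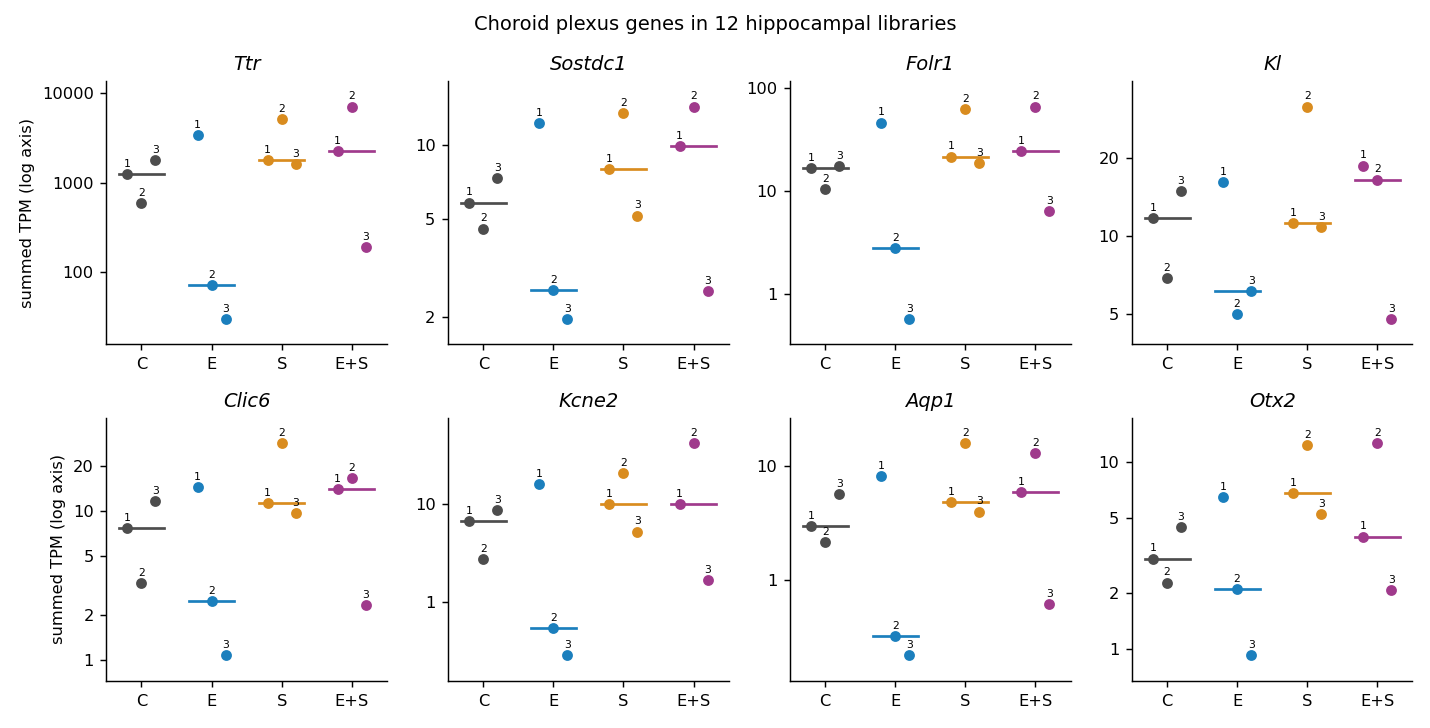
Summed TPM (log axis) of the 8 choroid plexus genes in the control (C), ethanol (E), stress (S) and ethanol + stress (E+S) groups. Points are single mice with their replicate number and bars are group medians; ethanol replicates 2 and 3 and ethanol + stress replicate 3 are the 3 lowest libraries in each panel.

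Transporters and channels of the epithelium had the same 3 lowest and 2 highest mice as Ttr, though not in one order. Kcne2 encodes a small subunit of potassium channels. Its level was 6.76, 2.77 and 8.74 TPM in control mice, 16.0, 0.549 and 0.287 TPM in ethanol mice, 9.92, 20.7 and 5.25 TPM in stress mice, and 9.92, 41.8 and 1.68 TPM in ethanol + stress mice. The highest library exceeded the lowest 146-fold. Aqp1 encodes the water channel of the apical membrane. It was at 2.98, 2.14 and 5.66 TPM in control, 8.16, 0.324 and 0.22 TPM in ethanol, 4.82, 15.75 and 3.97 TPM in stress, and 5.93, 12.8 and 0.619 TPM in ethanol + stress mice, a 71.6-fold range. In ethanol replicate 3 these values rest on about 4 read pairs for Kcne2 and 5 for Aqp1, with exact Poisson 95% intervals of 1.08 to 10.2 and 1.61 to 11.6, so both genes were close to the counting limit there. These intervals cover counting error only. Clic6, an intracellular chloride channel protein, was at 7.70, 3.29 and 11.7 TPM in control, 14.4, 2.50 and 1.08 TPM in ethanol, 11.3, 28.4 and 9.69 TPM in stress, and 14.0, 16.6 and 2.36 TPM in ethanol + stress mice. Its range was narrower, at 26.3-fold.

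Folr1 encodes the receptor that brings folate into cerebrospinal fluid. It was at 16.9, 10.4 and 17.6 TPM in control, 46.4, 2.80 and 0.579 TPM in ethanol, 21.7, 62.7 and 18.9 TPM in stress, and 24.4, 66.5 and 6.44 TPM in ethanol + stress mice. Each stress mouse was above each control mouse, while the other treated groups overlapped control. The range was 115-fold, and the lowest value rests on about 6 read pairs. The sum over 16 listed transcripts is steadier than its parts: the transcript with the highest mean held 0% to 86.5% of the gene's TPM in single libraries.

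Kl encodes klotho, a co-receptor of fibroblast growth factor 23 that is also made outside the plexus, in neurons among others. Its level was 11.7, 6.92 and 14.9 TPM in control, 16.1, 5.03 and 6.16 TPM in ethanol, 11.2, 31.5 and 10.8 TPM in stress, and 18.7, 16.5 and 4.82 TPM in ethanol + stress mice. This was the narrowest range of the 8 genes, 6.55-fold, and the only one whose lowest library was ethanol + stress replicate 3. Sostdc1, a secreted antagonist of BMP and Wnt signals, was at 5.80, 4.55 and 7.29 TPM in control, 12.3, 2.57 and 1.96 TPM in ethanol, 7.95, 13.4 and 5.15 TPM in stress, and 9.82, 14.3 and 2.54 TPM in ethanol + stress mice. Its highest library exceeded its lowest 7.29-fold. Neither gene came near 0 in any library.

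Otx2 encodes the homeodomain transcription factor that is needed to form the choroid plexus and stays on in its adult epithelium. It was at 3.04, 2.27 and 4.50 TPM in control, 6.48, 2.09 and 0.923 TPM in ethanol, 6.83, 12.3 and 5.26 TPM in stress, and 4.00, 12.6 and 2.06 TPM in ethanol + stress mice. As for Folr1, each stress mouse was above each control mouse. The range over the 12 libraries was 13.7-fold.

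Because these genes moved together, the bases before their starts were read for the letters that Otx2 and its relatives recognise, TAATC and the longer TAATCC, on both strands. Of the 8 genes, 4 had an entry in the RefSeq promoter table (GRCm38.p6), and Ttr, Sostdc1, Folr1 and Clic6 had none. The 250 bases upstream of the RefSeq start are shown 5′ to 3′ on the gene's strand for these 4, with a match in capitals, first for the 2 genes that followed Ttr most closely and then for Kl and Otx2, whose slopes on Ttr were shallower. They are Kcne2 (chr16:92292139-92292388, plus strand), Aqp1 (chr6:55336049-55336298, plus strand), Kl (chr5:150952357-150952606, plus strand) and Otx2 itself (chr14:48665110-48665359, minus strand).
Kcne2: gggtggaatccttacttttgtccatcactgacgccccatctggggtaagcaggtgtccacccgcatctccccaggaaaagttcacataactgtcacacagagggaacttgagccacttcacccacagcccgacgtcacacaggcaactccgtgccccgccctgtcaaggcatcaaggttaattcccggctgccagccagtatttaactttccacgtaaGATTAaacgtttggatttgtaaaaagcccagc
Aqp1: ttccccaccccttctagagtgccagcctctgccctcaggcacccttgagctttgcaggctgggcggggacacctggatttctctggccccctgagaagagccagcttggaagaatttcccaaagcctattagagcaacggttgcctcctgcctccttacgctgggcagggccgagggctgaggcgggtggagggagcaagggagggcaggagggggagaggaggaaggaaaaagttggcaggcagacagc
Kl: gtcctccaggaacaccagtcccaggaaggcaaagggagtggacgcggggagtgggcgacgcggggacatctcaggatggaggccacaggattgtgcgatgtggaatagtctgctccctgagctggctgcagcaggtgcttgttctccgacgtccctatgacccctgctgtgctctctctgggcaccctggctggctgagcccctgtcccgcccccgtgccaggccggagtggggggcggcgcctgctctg
Otx2: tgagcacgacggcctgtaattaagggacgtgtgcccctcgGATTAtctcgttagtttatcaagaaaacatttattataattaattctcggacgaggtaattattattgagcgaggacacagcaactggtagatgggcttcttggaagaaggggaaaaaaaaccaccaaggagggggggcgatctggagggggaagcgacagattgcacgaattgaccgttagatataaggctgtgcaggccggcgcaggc
Kcne2 held TAATC 1 time, read as GATTA on this strand with its first base at -32 from the start. Otx2 held it 1 time, at -210, and with the base before it this match is also the longer TAATCC. RefSeq has 2 such windows for Kcne2 and 4 for Otx2, 1 of each held TAATC, and the windows shown were taken for being nearest to the start of the transcript with the highest mean. Kl and Aqp1 held neither string in this window. Among 32851 RefSeq promoter windows of the same length, 19.8% held TAATC and 6.25% held TAATCC. A match describes letters and is not a shown binding site.

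The mice at both ends were largely the same for the 8 genes. Ethanol replicates 2 and 3 and ethanol + stress replicate 3 were the 3 lowest libraries for 8 of 8 genes. Stress replicate 2 and ethanol + stress replicate 2 were the 2 highest for 7 of 8, the exception being Kl. On the log2 scale, Pearson r over the 28 pairs of genes ran from 0.81 to 0.99 with a median of 0.94. After subtraction of group means the median was 0.947. These correlations are what the genes were chosen by. Between 17.1% (Sostdc1) and 36.0% (Otx2) of the variation of a gene lay between groups, and the rest lay between mice of a group. With so few mice in a group, part of the variation lies between groups even with no treatment effect. These shares therefore do not measure such an effect. Ttr had the 8th widest within-group spread of the 18434 tested genes, with an SD of 2.33 on the log2 scale, against a median of 0.22 over all tested genes. Kl had the least spread of the 8, with an SD of 0.83.

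The genes did not fall in equal proportion. On log2 axes the level of Kcne2 changed by 0.86 for each unit of Ttr, Aqp1 by 0.81 and Folr1 by 0.78. The slope was 0.55 for Clic6, 0.42 for Otx2, 0.38 for Sostdc1 and 0.29 for Kl. Per 1000 TPM of Ttr, Kl ran from 2.33 TPM in ethanol + stress replicate 2 to 205 TPM in ethanol replicate 3. The same ratio for Kcne2 stayed between 3.28 and 9.56 TPM and for Aqp1 between 1.81 and 7.33 TPM. In ethanol replicate 3, the library with the least of most of these transcripts, Ttr stood at 1.77% of its median over the 12 libraries, Folr1 at 3.17%, Kcne2 at 3.70% and Aqp1 at 5.0%. Clic6 kept 10.3%, Otx2 21.7%, Sostdc1 29.9% and Kl 53.6%. When the 3 lowest libraries were left out, the slopes rose to 0.46 for Kl, 0.53 for Sostdc1 and 0.72 for Otx2 over 9 libraries, to 0.71 for Clic6 and to 1.03 for Kcne2, while Folr1 (0.83) and Aqp1 (0.84) moved little.

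**Figure D2:**
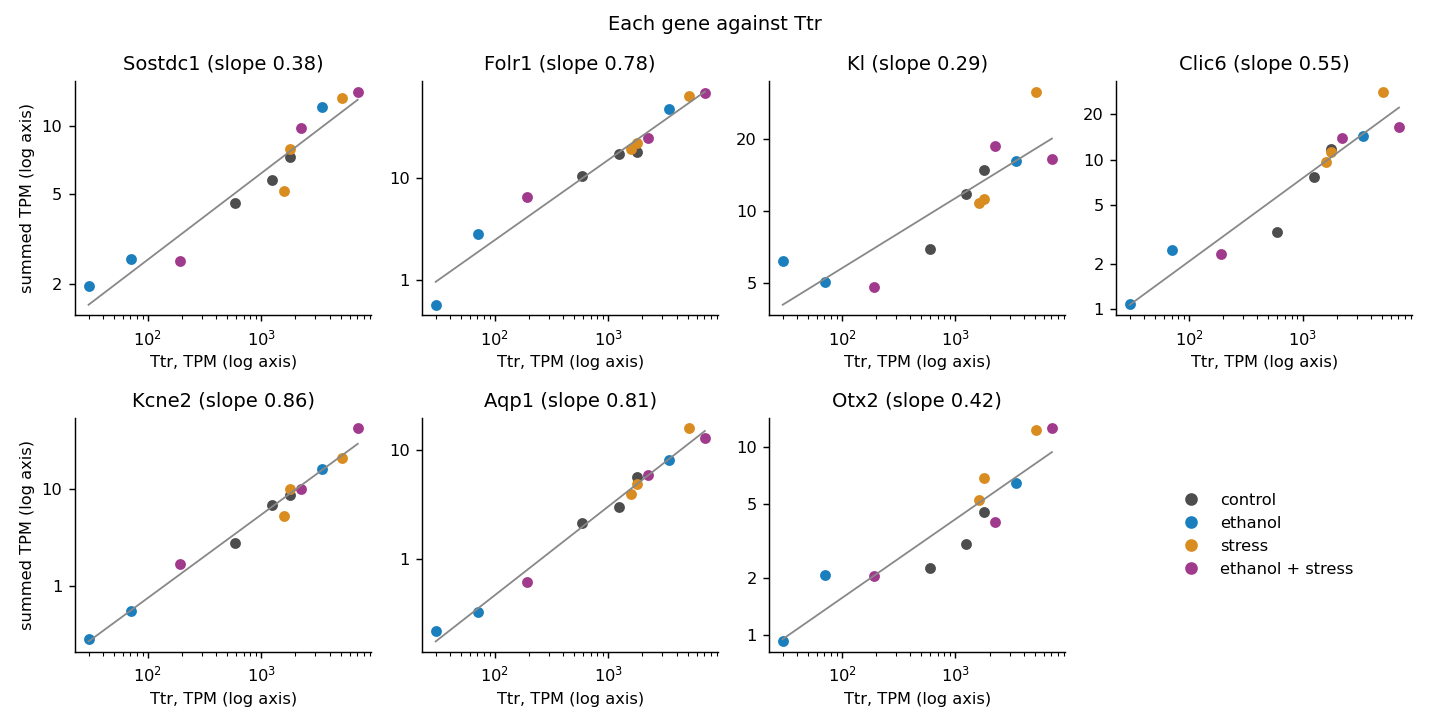
Summed TPM of 7 choroid plexus genes against Ttr in the same library, both on log axes, with the least-squares line on log2 values. Points are the 12 mice coloured by group; the line is steep for Kcne2 (slope 0.86) and shallow for Kl (slope 0.29), which levels off where Ttr is low.

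Each treatment was compared with control to ask whether the exposures of early life left a difference in adult levels. No choroid plexus gene was called, at an unadjusted p under 0.01 in limma, in any of the comparisons, and 0 of 8 passed an unadjusted p under 0.05. In ethanol mice the 8 estimates lay below control, from -2.49 for Ttr to -0.31 for Otx2 on the log2(TPM + 0.5) scale, with a median of -0.98. The 95% interval for Ttr ran from -5.95 to 0.96 (limma, adjusted p = 0.997). For Folr1 the estimate was -1.46 with an interval of -3.97 to 1.06, for Kcne2 -1.34 (-3.90 to 1.23) and for Aqp1 -1.16 (-3.37 to 1.06). On the TPM scale the mean of Folr1 was higher in ethanol (16.6) than in control mice (15.0), while the means of the other 7 genes were lower. Over all tested genes the median was 0.02, and 0.678% were called. Ethanol replicate 1 lay above the control mice for each of the 8 genes. Without ethanol replicate 1, Ttr (-4.56) and Folr1 (-3.00) passed the threshold, with unadjusted p = 0.0029 and 0.00429 in limma. Leaving out the highest mouse of a group lowers the estimate and narrows the spread by itself. The share of all genes called in that fit is not given here, so these calls are no support for a difference. Without ethanol replicate 3, Otx2 turned to 0.22 and the other 7 stayed below control.

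In stress mice the 8 estimates lay above control, from 0.47 for Sostdc1 to 1.16 for Otx2, with a median of 0.96 against 0.00 for all tested genes. Otx2 had an interval of -0.21 to 2.52 (limma, adjusted p = 0.9998), and Ttr, at 1.15, an interval of -2.30 to 4.61. The call rate over all genes was 0.51%. In a fit of the stress and control groups alone, Otx2 passed the threshold with the same estimate (limma, unadjusted p = 0.00802). Stress and control mice did not overlap for 2 of the 8 genes, Folr1 and Otx2, and for 7.2% of all tested genes. Stress replicate 2 held the highest value of its group for each of the 8 genes.

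In ethanol + stress mice the estimates ran from 0.11 for Kl to 0.71 for Kcne2, with a median of 0.35 against 0.02 over all tested genes. The direction depended on single mice. Without ethanol + stress replicate 2 the 8 estimates lay below control, from -0.75 for Ttr to -0.11 for Otx2. Without control replicate 2 those of Kl (-0.19), Clic6 (-0.17), Ttr (-0.0456) and Aqp1 (-0.0178) did, and without ethanol + stress replicate 1 those of Kl (-0.23) and Clic6 (-0.0511). Kcne2 had an interval of -1.86 to 3.28 (limma, adjusted p = 0.878). Calls were made for 0.971% of all genes. No choroid plexus gene separated ethanol + stress from control mice or ethanol from control mice, where 10.2% and 8.25% of all tested genes did. The interaction, the difference between the combined effect and the sum of the single ones, was 1.74 for Ttr with an interval of -3.15 to 6.62, and with single mice left out the interactions of Ttr and Kcne2 stayed above 0 while those of the other 6 each changed sign at least 1 time. None was called, against 0.461% of all genes. Since the genes were chosen for varying within groups, wide intervals are part of the choice. The comparisons share the control mice, and a p that misses the threshold does not show that the groups were alike.

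**Figure D3:**
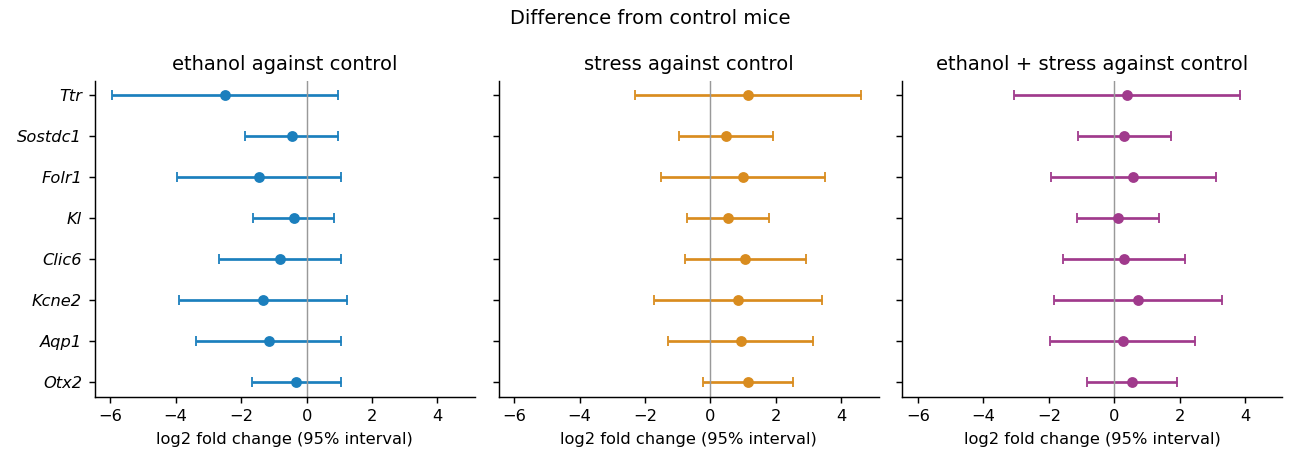
Log2 fold change from control of the 8 choroid plexus genes in the ethanol, stress and ethanol + stress groups, with 95% intervals from limma. Each interval crosses 0, and the widest, for Ttr, runs from -5.95 to 0.96 in the ethanol group.

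A second list of 28 genes known from choroid plexus epithelium and its stroma was set beside the 8. In ethanol mice 0 of 28 were called and the median difference was -0.32, in stress mice 0 were called with a median of 0.53, and in ethanol + stress mice 1 was called with a median of 0.34. For the interaction, 0 were called in limma, with a median of 0.06. At an unadjusted p under 0.05 the counts were 1, 1, 1 and 0 of 28, beside 3.63%, 2.4%, 5.37% and 2.69% of all tested genes, so that 1 of 28 is near the background. The called gene was Igf2, an insulin-like growth factor of the plexus and of the meninges and vessels. Igf2 was at 18.9, 14.2 and 17.3 TPM in control and at 23.9, 29.6 and 21.5 TPM in ethanol + stress mice, with a log2 difference of 0.56 ± 0.17 (SE; limma, unadjusted p = 0.00643, adjusted p = 0.791). It was also above every control mouse in each ethanol and stress mouse, at 27.1, 22.1 and 20.4 TPM and at 19.4, 27.4 and 24.7 TPM. Without control replicate 2 or 3, or ethanol + stress replicate 1 or 2, the count of called genes fell to 0. It was also 0 with TPM rescaled to a common total, with the 20 highest transcripts removed and with 1 transcript per gene.

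The mean log2 level of the 8 genes was then added to the model to ask which other genes move with it between mice of a group. Of 18426 other genes, 37 rose with it at an adjusted p under 0.05 in limma, which is 0.201%, and 0 fell. At an unadjusted p under 0.05, 507 rose and 268 fell. The list of 28 held 15 of the 37. The 8 were chosen by their levels, and the list was drawn up with earlier results of these data known. The slopes and their adjusted p are therefore a description and no independent support. Enpp2, which encodes autotaxin, had a slope of 0.75 and the smallest adjusted p of 1.65e-05. It had the same 3 lowest and 2 highest mice as Ttr, at 360.2, 242 and 503 TPM in control, 648, 127 and 114 TPM in ethanol, 454, 963 and 342 TPM in stress, and 543, 724 and 151 TPM in ethanol + stress mice. Cldn2, a claudin that lets ions through the tight junctions of the plexus, had a slope of 0.95 and ranged from 0.188 to 10.2 TPM. Kcnj13, a potassium channel, had a slope of 1.10 and ranged from 1.34 to 40.2 TPM. Slc4a5, a bicarbonate transporter, had a slope of 0.82. 1500015O10Rik, also known as Ecrg4, had a slope of 1.07 and ranged from 2.59 to 139 TPM. The other listed genes that passed were Lbp, Steap1, Mfrp, Krt18, Trpv4, Igfbp2, F5, Rdh5, Col8a1 and Prlr.

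The 13 listed genes that did not pass included several with high levels in every library. Slc12a2, the sodium, potassium and chloride cotransporter, was at 23.4 to 44.0 TPM with a slope of 0.13. Igf2 had a slope of 0.13, Slc4a2, an anion exchanger, 0.22, Car12, a carbonic anhydrase, 0.26 and Slc29a4, a monoamine transporter, 0.18. Tmem72, at 8.04 to 13.9 TPM, had a slope of 0.08. Its mean transcript length, 16983 bases, was the longest among the listed choroid plexus genes. How far the level of Tmem72 measures mRNA of the plexus was not tested. Igfbp2 passed with a slope of 0.35 and never fell below 32.2 TPM. Not passing did not go with a high floor alone. Calml4, at 1.51 to 49.0 TPM, and Abca4, at 0.829 to 8.12 TPM, did not pass either. Nor did Wfikkn2, at 0.682 to 2.36 TPM, and Lmx1a, at 0.132 to 1.54 TPM. Enpp2 passed with a floor of 114 TPM. Genes with a high floor thus stood beside genes that fell close to 0, among those that passed and those that did not.

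By likeness of pattern over the 12 libraries, the 20 nearest of 18426 other genes had Pearson r of 0.93 to 0.99 with the mean standardised level of the 8. They were Enpp2, Cldn2, Slc4a5, Steap1, Lbp, Col9a3, 1500015O10Rik, Kcnj13, Mfrp, Col8a2, Prr32, Zfp185, Sult1c2, Krt18, Cab39l, Elovl7, Trpm3, Slc31a1, Wfdc2 and Map3k19, and 9 of them were in the list of 28. Wfdc2, a secreted protein with a protease inhibitor fold, was listed at 0 in ethanol replicate 3 and reached 12.2 TPM. Trpm3, a cation channel whose intron holds a microRNA rich in the choroid plexus, had a floor of 21.4 TPM.

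Lists for other cell types and tissues next to the plexus were set beside the 8 genes in the same way. The mean log2 level of the 28 other choroid plexus genes had r = 0.98 and Spearman's rho = 0.99 with that of the 8 over 12 libraries, and r = 0.99 over 10 libraries, without ethanol replicates 2 and 3. For ependymal cells, which line the ventricle, r was 0.38 with rho = 0.26, and without those 2 libraries r was -0.02. Dynlrb2, Foxj1 and the other 5 ependymal genes summed to 63.7 to 149 TPM, with the lowest sum in ethanol replicate 3. That library was the lowest for each of the 7 ependymal genes, as for 7 of the 8 choroid plexus genes. There they stood between 17.4% (Dynlrb2) and 81.9% (Meig1) of their medians. For thalamus r was 0.32, for hippocampal neurons 0.21, for endothelium 0.13, for astrocytes 0.05, for blood -0.10 and for meninges and fibroblasts -0.12. Without ethanol replicates 2 and 3, r was -0.40 for thalamus, -0.36 for endothelium, 0.38 for blood and -0.12 for astrocytes, each with the opposite sign. In these 7 lists 0 of 48 genes passed the test of the slope, and 1 had an unadjusted p under 0.05 in limma. No gene of any list was at 0 in a library.

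**Figure D4:**
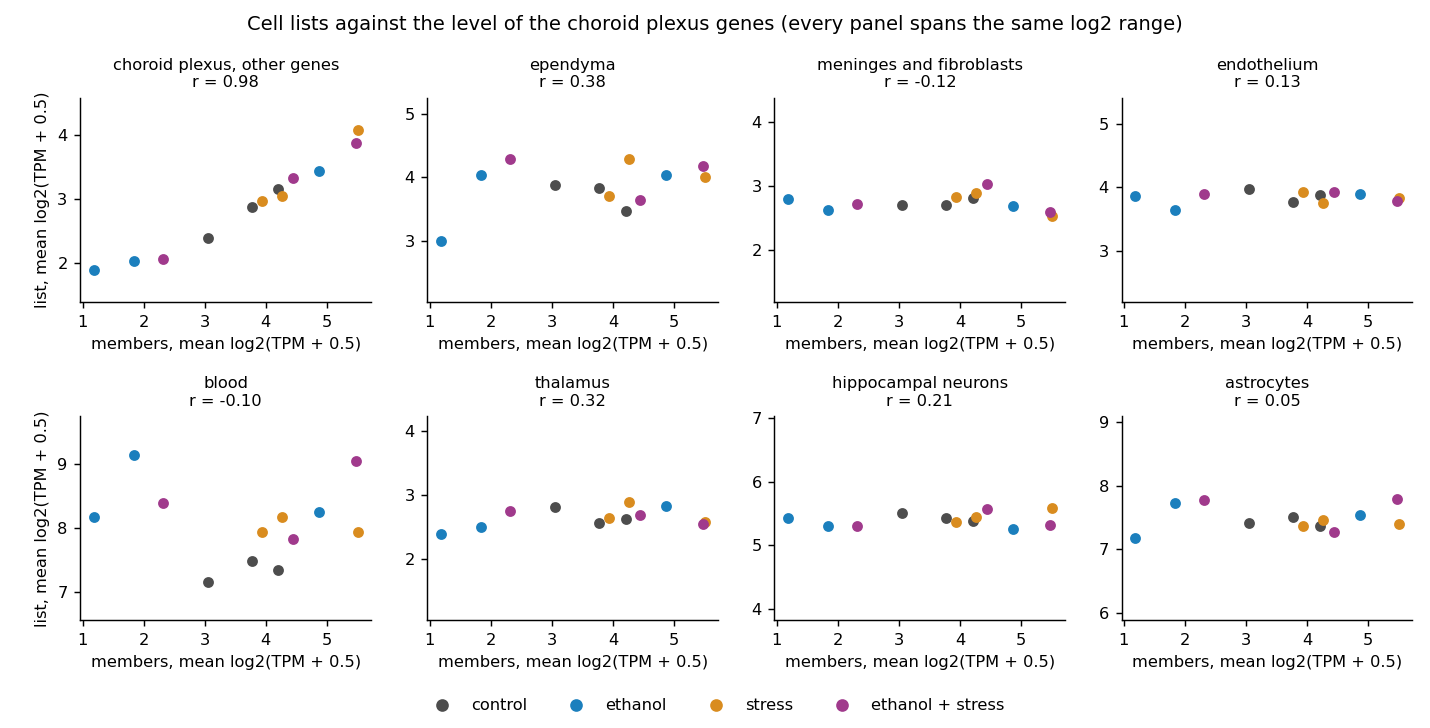
Mean log2(TPM + 0.5) of 8 gene lists against that of the 8 choroid plexus genes, 1 point per mouse coloured by group, with Pearson r. The vertical axes span the same log2 range; the list of other choroid plexus genes climbs with the 8 (r = 0.98), and the other lists stay level or scatter.

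Blood genes were the other list with calls. The 5 haemoglobin and erythroid genes (Hba-a1, Hba-a2, Hbb-bs, Hbb-bt and Alas2) were called higher in ethanol and in ethanol + stress mice, 5 of 5 in each, with adjusted p of 0.79 or more in limma. Of all tested genes 0.678% and 0.971% were called there. In stress mice 0 of 5 were called, and 3 had an unadjusted p under 0.05 in limma, beside 2.4% of all tested genes. All 5 lay above control without overlap in stress mice, where 7.2% of all tested genes did not overlap. The haemoglobin genes include near-identical copies that can share reads. Their summed level was 1603 to 2022 TPM in control, 3146 to 6815 TPM in ethanol, 2593 to 3392 TPM in stress and 2454 to 6480 TPM in ethanol + stress mice. For the 8 choroid plexus genes the summed level was 624 to 1852 TPM in control, 41.2 to 3544 TPM in ethanol, 1659 to 5285 TPM in stress and 211 to 7270.3 TPM in ethanol + stress mice. The part of blood carried in the tissue in the differences of the choroid plexus genes was not tested.

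With the level of the 8 genes in the model, part of the list of genes called across the whole table changed. For ethanol against control 125 genes were called without it and 112 with it, and 70 were in both, which is 56.0% of the first list. For stress 94 and 85 were called, with 54 in both. For ethanol + stress 179 and 159 were called, with 132 in both, and for the interaction 85 and 88, with 72 in both. The calls without the level were 0.678%, 0.51%, 0.971% and 0.461% of all tested genes in the order given. That is no more than a threshold of 0.01 gives with no difference between groups. How far another added covariate would change the lists was not tested. At an adjusted p under 0.05 the counts were 1 without and 1 with the level for ethanol, and 1 and 0 for ethanol + stress. Without ethanol replicate 3 the count with the level was 178 for ethanol, and without ethanol + stress replicate 1 it was 620 for ethanol + stress.

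The 2 libraries richest in choroid plexus genes differed from each other by gene. Kcne2 was higher in ethanol + stress replicate 2 than in stress replicate 2 by 1.01 on the log2 scale and Ttr by 0.47, while Kl was lower, at -0.93, and Clic6 at -0.78. Folr1 (0.08), Sostdc1 (0.09) and Otx2 (0.04) were nearly level. Shorter transcripts tended to have higher ratios, with exceptions: Folr1, with the shortest mean length (944 bases), was nearly level, and Kcne2 (1689 bases) stood far above Otx2 (1700.5 bases) and Sostdc1 (1781 bases). Across the 8 genes r between log2 length and the log2 ratio was -0.77, across the 8 and the 28 together -0.68, and across all 18434 tested genes -0.30. With all tested genes divided by length into 5 equal classes, the median ratio went from 0.30 for the shortest to -0.22 for the longest. Genes are not independent replicates, and the part of length in the ratios of single genes was not tested further. After removal of the trend over length from each library, none of the 8 genes was called in any of the comparisons. None was called before the removal either, so this does not bear on the part of length in the ratios.

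**Figure D5:**
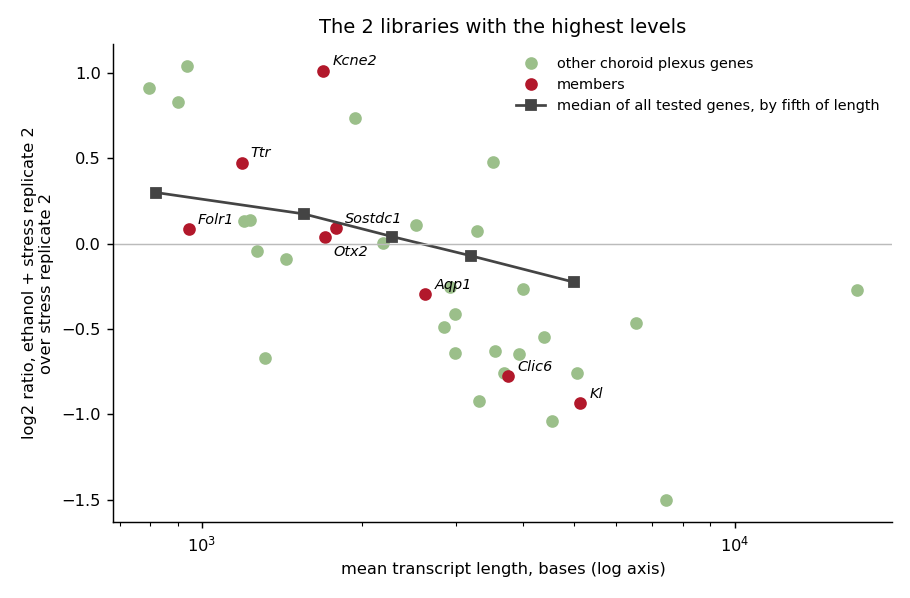
Log2 ratio of ethanol + stress replicate 2 over stress replicate 2 against mean transcript length in bases (log axis), for the 8 choroid plexus genes (red), 28 others (green) and, as squares, the medians of all tested genes in 5 classes of length. The squares fall from 0.30 to -0.22, and Kl (-0.93) and Kcne2 (1.01) stand at the extremes of the 8.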

How the data were processed

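RNA-Seq of hippocampal RNA, 1 library per mouse, was taken as deposited. Read pairs had been assigned by the authors to mouse transcripts of Ensembl using kallisto. CASAVA, sleuth and mm10 are named in the submitters' processing notes. The study's methods give a version for the Ensembl transcripts, while those of kallisto, CASAVA and sleuth are not given in the sources used here. The deposited values are a signal, TPM scaled between libraries by the authors. Transcripts (115270) were summed per gene with GENCODE annotation, by which 113580 were matched. Samples were grouped by their labels, which name no batch.

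Genes that reached 0.1 TPM in 6 or more libraries entered limma 3.58.1 (R 4.3.3) on the log2(TPM + 0.5) scale (lmFit, eBayes with trend, 4 groups in one model, two-sided). A gene was called at an unadjusted p under 0.01, and adjusted p are Benjamini-Hochberg values over all 18434 tested genes. The design had been written for plain TPM, and the scaled values were tested in the same way. The model was tested on simulated data. Read pairs were recovered from steps in the low values of genes with 1 transcript, of which 82.3% to 85.4% came within 0.15 of a whole number. This depth limits levels near 3 read pairs. Replicate numbers did not pair the samples: same-numbered mice of 2 groups had correlations of -0.17 to 0.16.

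The 8 genes and the lists were chosen with earlier results of these data known. Named were the 8, the called genes of the lists, the list genes of highest level and the 20 nearest genes. Genes named for their slope or floor, Cldn2, Kcnj13, Slc4a5, Tmem72 and Calml4 among them, and Wfdc2 and Trpm3 were picked once their values were known. Correlations with the 8 are given with no p, since their levels chose them, and the adjusted p of the slopes are read as a description. Alternatives were pseudocounts, filters, scalings, the variance model, the samples in the fit, the replicate block, single transcripts and left-out libraries. Removal of the trend over transcript length, the omission of the 3 lowest libraries and that of the 2 farthest libraries were added after seeing the data. Promoters are from RefSeq. Python 3.11.15, pandas 2.3.3, numpy 2.4.6, scipy 1.17.1 and matplotlib 3.10.9 were used.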

Additional observations from a re-analysis of the deposited data

How the results depend on the processing

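With all libraries kept, 404 recomputed values of log2 fold change stayed on their side of 0 and of the threshold, 3 changed sign and 1 passed. Otx2 in stress mice was called in a fit of the groups compared alone (1.16), which made 1 called gene of the 8. Kl in ethanol + stress mice turned to -0.0212 with TPM rescaled to a common total, the interaction of Clic6 to -0.016 with a pseudocount of 1, and that of Otx2 to 0.21 with 1 transcript per gene. The count of called genes of the list of 28 in ethanol + stress mice was 0, instead of 1, with TPM rescaled to a common total, with the 20 highest transcripts removed, with 1 transcript per gene and with the replicate block. Since the numbers did not pair the mice, the block is given only here, and it changed no other call of the 8 genes or the list.

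Leaving out libraries reversed 52 values of log2 fold change, brought 2 past the threshold and left 362 on their side of both. These counts include the omission of the 3 lowest libraries together, while the ranges of log2 fold change are for single mice left out. Between 0 and 2 of the 8 were called in ethanol mice. There Ttr ran from -4.56 to -1.15, Sostdc1 from -1.19 to -0.00631, Folr1 from -3.00 to -0.28, Kl from -0.88 to -0.0862, Clic6 from -1.73 to -0.11, Kcne2 from -2.73 to -0.54, Aqp1 from -2.32 to -0.52 and Otx2 from -0.93 to 0.22. In ethanol + stress mice Ttr ran from -0.75 to 1.86, Sostdc1 from -0.17 to 0.97, Folr1 from -0.20 to 1.43, Kl from -0.23 to 0.69, Clic6 from -0.17 to 1.12, Kcne2 from -0.34 to 1.80, Aqp1 from -0.52 to 1.27 and Otx2 from -0.11 to 1.07. The interaction ran from 0.40 to 3.80 for Ttr, -0.18 to 1.02 for Sostdc1, -0.13 to 2.59 for Folr1, -0.37 to 0.55 for Kl, -0.65 to 0.97 for Clic6, 0.15 to 2.60 for Kcne2, -0.29 to 1.65 for Aqp1 and -0.96 to 0.32 for Otx2. In stress mice the 8 estimates stayed above 0, from 0.05 to 1.505. Of the list of 28, 0 to 1 were called in stress and 0 to 1 in ethanol + stress mice. Calls with the level of the 8 genes in the model ran from 98 to 178 for ethanol and from 109 to 620 for ethanol + stress.

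The omission of the 3 lowest libraries was chosen after seeing these levels and leaves 1 ethanol mouse, assumed to vary like the others. That choice fixed its higher estimates for ethanol and ethanol + stress mice, and its interactions, which contain both, are no independent evidence of a direction. In ethanol mice it gave 1.64 for Ttr, 1.02 for Sostdc1, 1.63 for Folr1, 0.57 for Kl, 1.05 for Clic6, 1.45 for Kcne2, 1.172 for Aqp1 and 0.93 for Otx2, and for the interaction -0.94, -0.52, -1.19, -0.42, -0.99, -0.50, -0.83 and -1.02 in the same order.

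The correlation of the list of 28 with the 8 genes stayed between 0.97 and 0.99. That of meninges and fibroblasts became 0.0443 with TPM rescaled, and with group means subtracted blood became 0.0436 and hippocampal neurons -0.0404. Without ethanol replicates 2 and 3 ependyma became -0.0249, endothelium -0.36, blood 0.38, thalamus -0.40 and astrocytes -0.12. The cause of these changes was not tested.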
